A study of Mus musculus with 6 samples.

Results

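The genes described here are 36 enzymes, subunits and carriers. They take glucose to pyruvate, pass lactate and pyruvate across membranes, control the use of pyruvate in mitochondria, and store or release glycogen. They were chosen by name from a list and not by a threshold on measured values, though with earlier results of these data known. All 36 were found among the 55335 genes of the count table. RNA was measured by sequencing after an anti-HA antibody was used to pull tagged material from homogenised mouse retina, so that the RNA of retinal ganglion cells, whose axons form the optic nerve, would be enriched. HA is a short peptide tag, and neither the protein that carries it nor the promoter or Cre line behind it is given in the labels. Retinas came from C57BL/6 mice aged 10 weeks with the genotype wild type, and every library of both groups passed through the pull-down. The 3 naive libraries and the 3 SOHU libraries were told apart by the labelled condition. SOHU stands for the silicone oil model of ocular hypertension, in which oil in the anterior chamber raises eye pressure, and retinas were taken 1 week after the injection. The labels carry the injection text for the naive libraries as well, and do not say whether libraries came from separate or pooled animals. The p-values therefore cover only variation among these libraries, part of which may be technical.

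Glycolysis splits glucose into pyruvate in the cytosol and yields ATP without oxygen. Lactate dehydrogenase turns pyruvate into lactate and back, and the monocarboxylate carriers move lactate between cells. In mitochondria pyruvate dehydrogenase, which the PDK kinases switch off, turns pyruvate into acetyl-CoA. Many steps have several isoenzymes made from separate genes, and cell types differ in which one they use: in nervous tissue gamma enolase and the glucose carrier GLUT3 are known from neurons, aldolase C from astrocytes and Müller glia, and glycogen is held mainly by glia. Retina is known for making much lactate even in the presence of oxygen.

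Each library held 21691354 to 26824919 counted reads, and 17687 genes, all 36 members among them, passed the filter on low counts. The cell types in the pull-down were checked with marker lists, whose levels were summed as CPM (reads of a gene divided by its library size after TMM adjustment, on the usual CPM scale). The 16 ganglion cell markers summed to 6893, 4084 and 4777 CPM in the naive libraries and 2138, 1873 and 2759 CPM in the SOHU libraries, and 15 of the 16 fell. The 13 markers of Müller glia and astrocytes summed to 14104, 18787 and 16538 CPM in the naive and 52397, 33602 and 26582 CPM in the SOHU libraries, and 9 of the 13 rose. The 12 rod markers overlapped, at 5688 to 6822 CPM against 5264 to 8488 CPM, as did the cone, bipolar, erythrocyte and pigment epithelium lists. The 12 amacrine and horizontal cell markers were lower in every SOHU library (2306 to 2633 CPM against 1473 to 1869 CPM, 4 called). The summed level of the 9 vascular markers was higher (361 to 409 CPM against 748 to 1069 CPM, with 3 of 7 tested called). Most of it was Kdr and Flt1, and Pdgfrb was also called (9.07 ± 0.832 against 22 ± 6.7 CPM). Rgs5, Cldn5 and Acta2 had higher means and did not pass, with Rgs5 higher in every SOHU library. The endothelial genes Pecam1 and Cdh5 were too scarce to be tested, and Tek was scarce in both groups and did not pass. The summed microglia and leukocyte markers were higher too, at 7.24 to 32.3 CPM against 44.7 to 128 CPM (4 of 11 tested called), and reactive glia markers rose in 7 of 9. The largest parts were Nefl and Sncg in the ganglion cell sum and Apoe and Clu in the glial sum. No marker was at 0 reads in every library. Glial and rod RNA was therefore part of every library, and fewer cells of a type cannot be told apart from less RNA per cell. The part of these shifts in the changes below was not tested.

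Most of the glycolytic chain was lower in SOHU. Of the 36 members 14 fell and 3 rose, where 5.93% of all genes tested fell and 8.02% rose (edgeR quasi-likelihood test, Benjamini-Hochberg adjusted p under 0.05 over all genes). In 19 members the highest SOHU value was under the lowest naive value, beside 19.7% of all genes, and in 4 the groups parted in the other direction, beside 19.3%. The median log2 fold change of the 36 was -0.44, that of all genes 0.014 and that of the ganglion cell markers -1.12. The genes that fell were Slc2a3, Gpi1, Pfkm, Pfkl, Pfkfb3, Aldoa, Tpi1, Pgk1, Pgam1, Eno2, Pkm, Slc16a3, Pdk1 and Gpd2, and those that rose were Slc16a1, Gpd1 and Pygb. These calls rest on the 6 libraries together. In edgeR no member passed without naive replicate 1 or naive replicate 3, where 0 of all genes passed as well. In these fits 20 and 23 of the 36 members had an unadjusted p under 0.05. So did 3919 of 18198 and 4251 of 18320 genes tested. Without naive replicate 2, 4 members fell and 1 rose, and without SOHU replicate 2, 0 fell and 1 rose. Of all genes tested 264 of 18298 and 46 of 18126 fell in these fits. All 14 kept a negative log2 fold change in each of the 6 omissions. When the libraries were scaled by the sum of the ganglion cell markers, 0 members fell, 19 rose and all 36 had a log2 fold change above 0. At this scale 12947 of the 17687 genes tested rose and 2 fell, with a median of 1.20 over all genes.

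**Figure D1:**
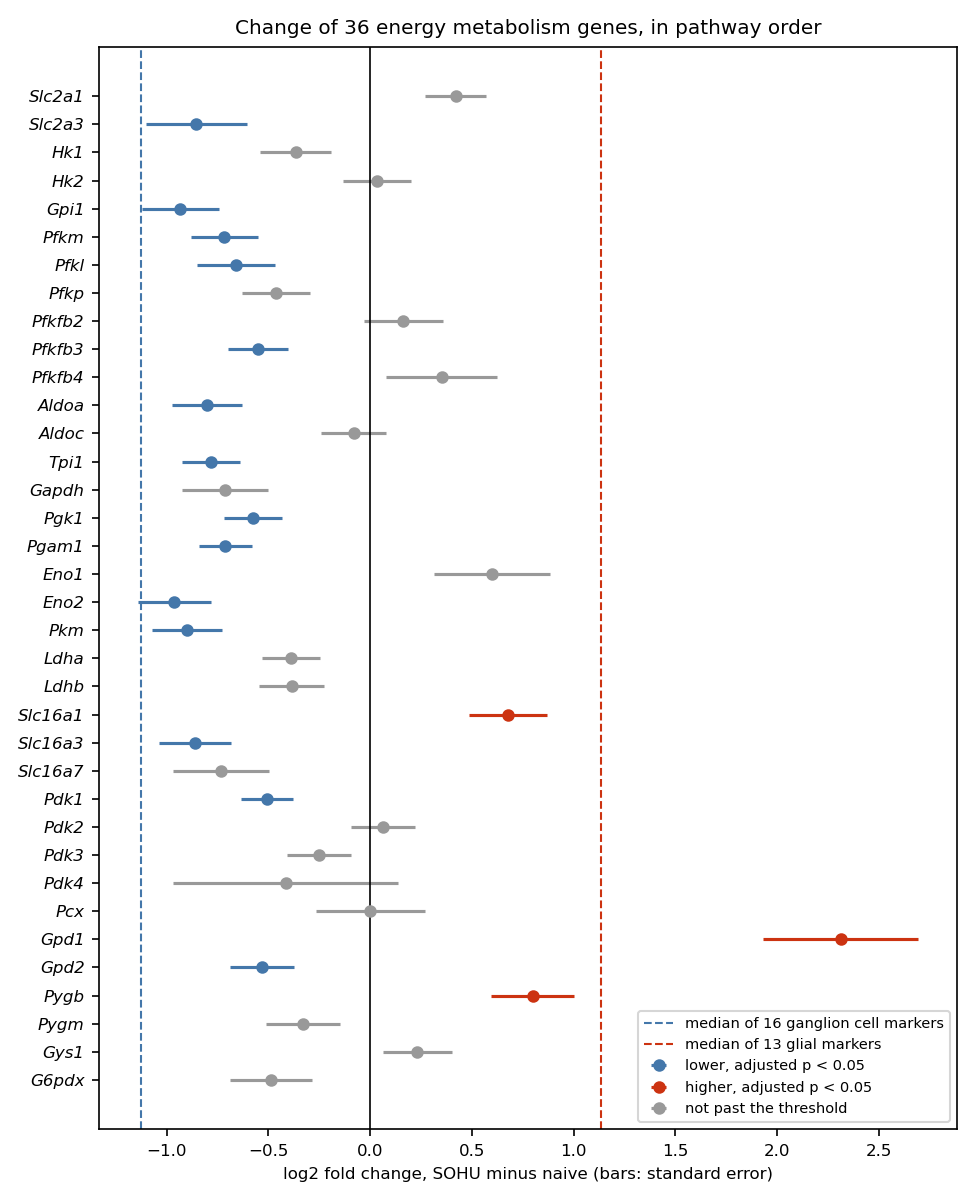
Log2 fold change of each member (SOHU minus naive, x axis) with its standard error, genes from glucose uptake at the top to glycogen and the pentose phosphate entry at the bottom. Blue points passed the threshold as lower (14), red points as higher (3), and dashed lines give the median of the ganglion cell (-1.12) and glial (1.14) marker lists.

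At the entry of glucose, Slc2a3 fell, and Slc2a1 had higher values that did not pass. Slc2a3, the neuronal carrier GLUT3, measured 133, 119 and 99.1 CPM in the naive libraries and 49.3, 50.3 and 94.3 CPM in the SOHU libraries. SOHU replicate 3 came close to the lowest naive library, while the other 2 SOHU libraries were far below it. The fall was 1.81-fold (log2 fold change -0.85, SE 0.25, edgeR adjusted p = 0.0481). It was 2.32-fold without SOHU replicate 3 and missed the threshold in each of the 5 other omissions. Slc2a1, which encodes GLUT1, the carrier of glia, endothelium and many other cells, measured 190.4, 221 and 209 CPM in the naive and 325, 276 and 231 CPM in the SOHU libraries. All of its SOHU values were the higher ones, but the change did not pass (log2 fold change 0.42, SE 0.15, edgeR adjusted p = 0.0882). The log2 ratio of Slc2a1 to Slc2a3 went from 0.83 ± 0.28 to 2.15 ± 0.76 (SD, n = 3 each), with no overlap between the groups. Per length, Slc2a1 made up 74.8, 79.4 and 81.4% of the summed level of both carriers across naive replicates and 93.2, 91.9 and 83.5% across SOHU replicates. This and all later shares rest on RPKM, the CPM per kilobase of summed exon length.

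Hexokinase, which traps glucose as glucose 6-phosphate, did not pass in either form. Hk1, the form bound to mitochondria in brain, measured 298 ± 24.6 CPM in naive and 231 ± 55.6 CPM in SOHU (SD, n = 3 each; log2 fold change -0.37, SE 0.18, edgeR adjusted p = 0.19). Hk2, the form of insulin-responsive tissues and photoreceptors, was at 37.9 ± 4.66 and 38.8 ± 6.74 CPM (log2 fold change 0.033, SE 0.17, edgeR adjusted p = 0.915). Glucose 6-phosphate isomerase stood apart from this step. Gpi1 (ENSMUSG00000036427.5, mm10 chromosome 7, 34201330 to 34230336, minus strand) measured 1652, 1538 and 1465 CPM in the naive and 884, 587 and 966 CPM in the SOHU libraries, with a wide gap between the groups. Its fall of 1.91-fold was among the steepest of the members (log2 fold change -0.93, SE 0.19, edgeR adjusted p = 0.017).

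Phosphofructokinase, the main point of control, is a tetramer of muscle, liver and platelet type subunits. Pfkm measured 266, 232 and 202 CPM in the naive and 151, 115 and 160.1 CPM in the SOHU libraries and fell 1.64-fold (log2 fold change -0.72, SE 0.16, edgeR adjusted p = 0.0234). Pfkl measured 771, 657 and 579.7 CPM in naive and 515, 319 and 437 CPM in SOHU and fell 1.58-fold (log2 fold change -0.66, SE 0.19, edgeR adjusted p = 0.0472). Pfkp, at 496, 479 and 426 CPM in naive and 415, 270.0 and 331 CPM in SOHU, was lower in every SOHU library and did not pass (log2 fold change -0.46, SE 0.17, edgeR adjusted p = 0.0911). All 3 subunits thus had lower values together, and their summed level was 205 ± 26.5 RPKM in naive and 131 ± 26.1 RPKM in SOHU. Pfkl held 49.8, 48.3 and 48.5% of that sum across naive replicates and 50.3, 46.7 and 47.4% across SOHU replicates, and the log2 ratio of Pfkm to Pfkl was -1.52 ± 0.017 and -1.56 ± 0.18 (exact permutation p = 1.00, n = 3 each). The PFK-2/FBPase-2 enzymes make and break fructose 2,6-bisphosphate, the activator of phosphofructokinase. Of these Pfkfb3, the form with the strongest kinase side, fell 1.46-fold, from 40.8, 41.9 and 41.3 CPM in the naive to 25.4, 26.8 and 32.5 CPM in the SOHU libraries (log2 fold change -0.55, SE 0.15, edgeR adjusted p = 0.037). Pfkfb2 (27.1 ± 4.94 and 30.3 ± 5.95 CPM, log2 fold change 0.16) and Pfkfb4 (7.98 ± 0.991 and 10.2 ± 3.94 CPM, log2 fold change 0.35) did not pass, with edgeR adjusted p = 0.601 and 0.419. The 3 genes summed to 10.8 ± 0.954 RPKM in naive and 10 ± 0.125 RPKM in SOHU, and within that sum Pfkfb3 went from 53.6, 46.5 and 51.8% in the naive to 34, 35.1 and 42.8% in the SOHU libraries.

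Of the aldolases one isoenzyme fell and the other did not pass. Aldoa (ENSMUSG00000030695.16, mm10 chromosome 7, 126795234 to 126800751, minus strand), the member with the highest level per length, measured 7669, 6381 and 6539.8 CPM in the naive and 3958, 3261 and 4606 CPM in the SOHU libraries. Every SOHU library was far below the naive ones, a fall of 1.74-fold (log2 fold change -0.80, SE 0.17, edgeR adjusted p = 0.0200). A second identifier with the symbol Aldoa held 16 to 33 reads per library and was left out. Aldoc, the aldolase of astrocytes and Müller glia, measured 2846, 2397 and 2173 CPM in the naive and 2665, 2109 and 2240.4 CPM in the SOHU libraries, values that overlapped (log2 fold change -0.080, SE 0.16, edgeR adjusted p = 0.772). The log2 ratio of Aldoa to Aldoc stood at 1.43, 1.41 and 1.59 in naive retina and at 0.57, 0.63 and 1.04 after oil, a difference of -0.73. Aldoc correspondingly held 24.9, 25.1 and 22.9% of the aldolase level per length across naive replicates and 37.5, 36.6 and 30.3% across SOHU replicates.

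Of the single-gene steps in the middle of the chain Tpi1, Pgk1 and Pgam1 fell. Tpi1, the triose phosphate isomerase, measured 3912, 3318 and 3254 CPM in the naive and 2036, 1963 and 2095 CPM in the SOHU libraries, with very close SOHU values (1.72-fold, log2 fold change -0.78, SE 0.14, edgeR adjusted p = 0.0138). Pgk1, the first ATP-making step, fell 1.49-fold, from 1064, 971 and 857 to 713, 589 and 638 CPM (log2 fold change -0.58, SE 0.14, edgeR adjusted p = 0.0293). Pgam1, the phosphoglycerate mutase, fell 1.64-fold, from 1005, 937 and 883 to 554, 548 and 623 CPM (log2 fold change -0.71, SE 0.13, edgeR adjusted p = 0.014). In each of these genes the lowest naive library lay well above the highest SOHU library. Gapdh, the dehydrogenase between Tpi1 and Pgk1 and a common reference gene, measured 307, 273 and 279 CPM in the naive and 195, 115 and 215 CPM in the SOHU libraries. It was lower in all SOHU libraries and missed the threshold narrowly (log2 fold change -0.71, SE 0.21, edgeR adjusted p = 0.0516).

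The Gapdh row holds only a part of the reads of its sequence. Of the 50-base words in its annotated transcripts, 25.1% occur in other annotated genes, and 90 annotated copies, most of them processed pseudogenes, held 836, 832 and 784 CPM in the naive and 496, 346 and 609 CPM in the SOHU libraries. That is more than the 286 ± 18.3 CPM of Gapdh itself in naive. With the copies added, Gapdh fell and passed (log2 fold change -0.75, SE 0.20, edgeR adjusted p = 0.037), and it was also called by DESeq2, limma-voom and edgeR with DESeq2 size factors. Eno1 was the other member with many reads in copies, at 48.9% of its own. For the remaining 7 members with such copies they came to at most 2.89% of the member's reads, and their calls were the same with the copies added.

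Enolase, which makes phosphoenolpyruvate, had the largest difference in isoenzyme ratio of the steps from hexokinase to pyruvate kinase. Eno2 (ENSMUSG00000004267.16, mm10 chromosome 6, 124760053 to 124769673, minus strand), the neuronal gamma enolase, measured 1413, 1070.3 and 1016 CPM in the naive and 573, 514 and 709.9 CPM in the SOHU libraries. It had the steepest fall of the members, 1.95-fold (log2 fold change -0.96, SE 0.18, edgeR adjusted p = 0.0144). Eno1 (ENSMUSG00000063524.13, mm10 chromosome 4, 150236721 to 150248879, plus strand), the alpha enolase of most tissues, measured 3229.7, 3273 and 3029 CPM in the naive and 7539, 3631 and 3271 CPM in the SOHU libraries. SOHU replicate 1 alone was far above the rest, the other 2 SOHU libraries were near the naive ones, and the groups overlapped (log2 fold change 0.60, SE 0.29, edgeR adjusted p = 0.186). Without SOHU replicate 1 the difference was small (log2 fold change 0.11, edgeR adjusted p = 0.633). The copies of Eno1 held 1616, 1563 and 1535 CPM in the naive and 3619, 1730.1 and 1653 CPM in the SOHU libraries. SOHU replicate 1 was again far above the rest, the groups parted narrowly, and some of these reads may come from Eno1 itself. With the copies added the groups did not overlap, and Eno1 still did not pass (log2 fold change 0.59, SE 0.28, edgeR adjusted p = 0.192). SOHU replicate 1 was also the library with the highest sum of glial markers, and their part in the Eno1 value was not tested. The log2 ratio of Eno1 to Eno2 stood at 1.19, 1.61 and 1.58 in naive retina and at 3.72, 2.82 and 2.20 after oil, without overlap. Eno2 held 33.3, 27.2 and 27.7% of the enolase level per length across naive replicates and 8.0, 13.9 and 19.9% across SOHU replicates. The ratio and these shares leave out the copies of Eno1.

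The promoters of both enolase genes and of 2 lactate carriers described below are shown because these pairs parted in SOHU within a single step. Each is the first window of 300 bases that RefSeq (GRCm38.p6) gives for the gene, from 250 bases before its start to 50 after, read in the direction of the gene. Capitals mark ACGTG or GCGTG on either strand, the core letters of the hypoxia response element, which on the other strand read CACGT or CACGC and can overlap in CACGTG.
Eno2, minus strand, chr6:124769624-124769923: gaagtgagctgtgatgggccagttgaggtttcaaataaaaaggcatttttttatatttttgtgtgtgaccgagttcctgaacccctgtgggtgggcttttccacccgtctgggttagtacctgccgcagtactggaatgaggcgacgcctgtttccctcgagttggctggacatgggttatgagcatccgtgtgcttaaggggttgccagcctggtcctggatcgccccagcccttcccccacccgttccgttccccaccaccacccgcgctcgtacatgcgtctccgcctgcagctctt
Eno1, plus strand, chr4:150236458-150236757: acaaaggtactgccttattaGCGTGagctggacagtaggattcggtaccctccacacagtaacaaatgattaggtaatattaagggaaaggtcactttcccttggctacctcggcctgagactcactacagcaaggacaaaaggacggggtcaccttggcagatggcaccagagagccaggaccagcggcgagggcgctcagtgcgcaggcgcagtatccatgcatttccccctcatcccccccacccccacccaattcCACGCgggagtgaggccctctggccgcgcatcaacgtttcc
Slc16a3, plus strand, chr11:120948817-120949116: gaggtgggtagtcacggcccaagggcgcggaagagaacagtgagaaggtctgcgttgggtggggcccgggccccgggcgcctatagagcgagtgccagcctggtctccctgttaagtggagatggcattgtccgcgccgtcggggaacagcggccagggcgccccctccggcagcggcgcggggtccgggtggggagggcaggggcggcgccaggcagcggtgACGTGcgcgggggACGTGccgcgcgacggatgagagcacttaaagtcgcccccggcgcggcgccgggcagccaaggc
Slc16a1, plus strand, chr3:104638414-104638713: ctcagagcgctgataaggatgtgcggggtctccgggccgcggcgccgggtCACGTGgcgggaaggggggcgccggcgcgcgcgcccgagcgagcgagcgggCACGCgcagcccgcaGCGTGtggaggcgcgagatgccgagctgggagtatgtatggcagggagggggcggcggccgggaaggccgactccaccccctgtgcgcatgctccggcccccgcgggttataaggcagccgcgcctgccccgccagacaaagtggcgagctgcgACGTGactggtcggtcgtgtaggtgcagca
The Eno2 window held 0 of these words, Eno1 held 2, Slc16a3 held 2 close to the start and Slc16a1 held 5. A promoter was found for 33 members. At least 1 word stood in the first window of 25 of them (75.8%), beside 43.8% of the first windows of all 27025 genes in the table. The 25 included 7 of the 13 members that fell and both of the 2 that rose and had a window. Of the members that did not pass, only Hk1 and Gys1 held none there. Hk1, Aldoa, Pkm and Gpd2 held at least 1 in another annotated window, and other windows were not compared over all genes. The member windows were also richer in G and C, with a median of 60.7% against 52.7% for all genes. A match is a description of letters and not a site.

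**Figure D2:**
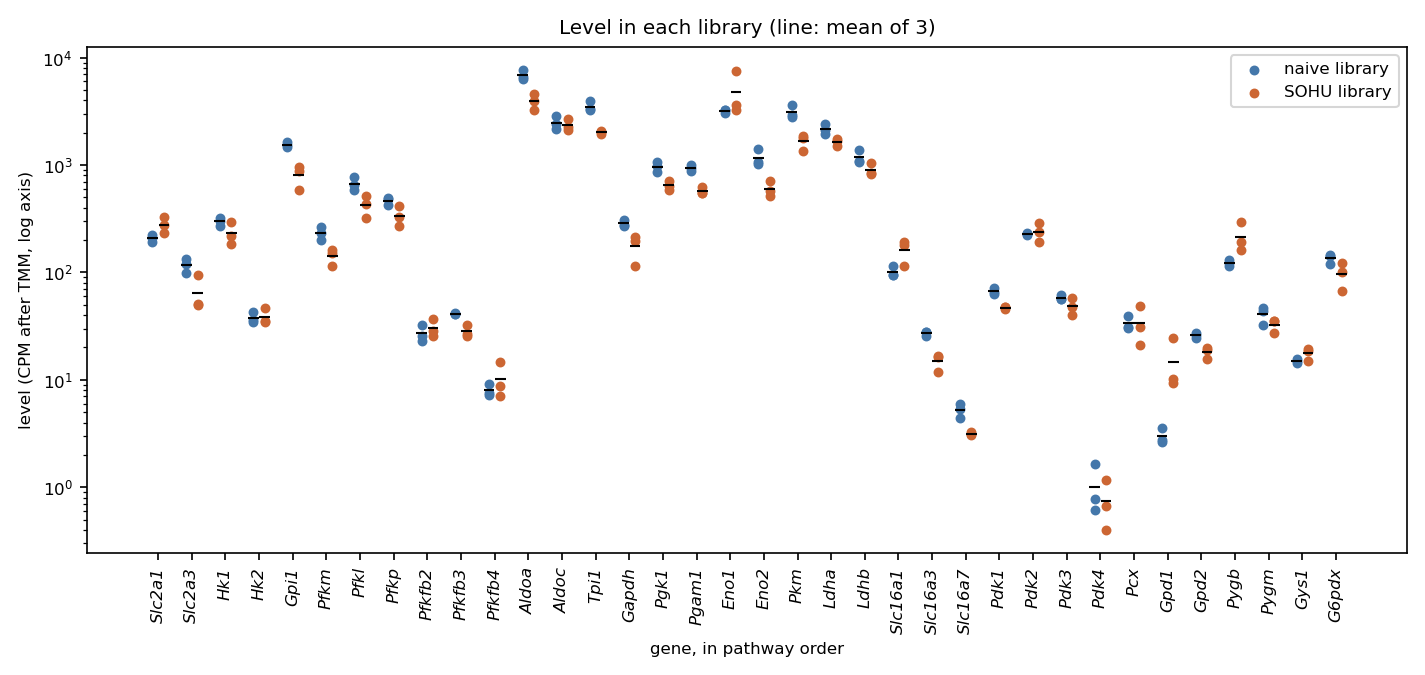
Level of each member in each library (CPM after TMM, log axis), genes in pathway order, with 3 naive (blue) and 3 SOHU (orange) points and a line at each mean. Aldoa lies highest in the naive libraries and in SOHU replicate 3, Eno1 lies highest in SOHU replicates 1 and 2, and the SOHU points of Tpi1, Pgk1, Pgam1, Eno2 and Pkm lie clear below the naive ones.

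Pyruvate kinase closes the chain. Pkm, whose alternative M1 and M2 forms a count per gene cannot separate, measured 3597, 2932 and 2819.5 CPM in the naive and 1866, 1364 and 1775 CPM in the SOHU libraries and fell 1.87-fold (log2 fold change -0.90, SE 0.17, edgeR adjusted p = 0.0154). Over the 10 steps from hexokinase to pyruvate kinase, 9 of 15 genes fell, 0 rose and 6 did not pass, with a median log2 fold change of -0.71. The 6 were Hk1, Hk2, Pfkp, Aldoc, Gapdh and Eno1. Of the 21 members outside these steps 5 fell and 3 rose, with a median of -0.33. Of all genes tested 5.93% fell and 8.02% rose.

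The balance of lactate dehydrogenase subunits did not differ detectably. Ldha, the subunit that favours lactate formation, measured 2387, 2138 and 1940.0 CPM in the naive and 1508, 1681 and 1751 CPM in the SOHU libraries. Ldhb, the subunit that favours lactate use, measured 1381, 1093 and 1077 CPM in naive and 1053, 839.6 and 827 CPM in SOHU. Both were lower in every SOHU library by about the same amount and neither passed, Ldha with log2 fold change -0.39, SE 0.14, edgeR adjusted p = 0.097 and Ldhb with log2 fold change -0.38, SE 0.16, edgeR adjusted p = 0.135. Their log2 ratio was 0.87 ± 0.091 in naive and 0.87 ± 0.31 in SOHU, a difference of -0.0015 (exact permutation p = 1.00, n = 3 each), with a wider spread among the SOHU libraries. Per length, Ldhb held 55, 51.9 and 53.9% of the sum across naive replicates and 59.6, 51.3 and 49.9% across SOHU replicates.

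The carriers of lactate and pyruvate parted in opposite directions. Slc16a1, or MCT1, the carrier of glia, endothelium and photoreceptors, measured 94.4, 116 and 95.6 CPM in the naive and 191, 182 and 116 CPM in the SOHU libraries. It rose 1.6-fold (log2 fold change 0.68, SE 0.19, edgeR adjusted p = 0.0458), although SOHU replicate 3 was almost level with naive replicate 2. Limma-voom did not call this rise, and in edgeR it passed in 1 of the 6 omissions, without SOHU replicate 3 (1.85-fold). Slc16a3, or MCT4, a carrier with low affinity known for lactate export, fell 1.82-fold, from 28, 28.1 and 25.3 CPM in the naive to 16.2, 11.7 and 16.8 CPM in the SOHU libraries (log2 fold change -0.86, SE 0.18, edgeR adjusted p = 0.0177). Its exons share 306 bases with Csnk1d on the opposite strand, which had 584% of its reads and did not pass (log2 fold change 0.14, SE 0.12, edgeR adjusted p = 0.472). Slc16a7, or MCT2, the neuronal carrier of high affinity, was scarce, with 6.01, 4.38 and 5.35 CPM in the naive and 3.24, 3.09 and 3.13 CPM in the SOHU libraries. All of its SOHU values were the lower ones, short of the threshold (log2 fold change -0.73, SE 0.23, edgeR adjusted p = 0.0651). The log2 ratio of Slc16a1 to Slc16a3 stood at 1.75, 2.04 and 1.91 in naive retina and at 3.56, 3.94 and 2.78 after oil, a difference of 1.52. That of Slc16a3 to Slc16a7 overlapped (difference -0.17).

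Among the kinases that switch off pyruvate dehydrogenase, the hypoxia-inducible form fell and the main form did not change detectably. Pdk1 measured 71.8, 66.1 and 62.3 CPM in the naive and 47.2, 46 and 47.9 CPM in the SOHU libraries and fell 1.42-fold (log2 fold change -0.51, SE 0.13, edgeR adjusted p = 0.0309). Pdk2, which held 69.3, 68.4 and 70.8% of the kinase level per length across naive replicates and 75.8, 73.4 and 74.8% across SOHU replicates, was at 227 ± 5.19 and 237 ± 48.4 CPM (log2 fold change 0.064, SE 0.16, edgeR adjusted p = 0.816). Pdk3 (58.1 ± 2.7 and 48.7 ± 8.98 CPM, log2 fold change -0.25, edgeR adjusted p = 0.306) did not pass. Pdk4, the form known from fasting, had 9 to 37 reads per library (log2 fold change -0.41, SE 0.55, edgeR adjusted p = 0.651), too few to show a change of the size seen in Pdk1. Pcx, the pyruvate carboxylase that is known from astrocytes in brain, was at 33.6 ± 4.92 CPM in naive and 33.6 ± 13.9 CPM in SOHU (log2 fold change 6.4e-04, edgeR adjusted p = 0.999), with SOHU values of 48.5, 21.1 and 31.1 CPM that spread to both sides of the naive ones.

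The glycerol phosphate dehydrogenases, which pass the electrons of cytosolic NADH to mitochondria, went opposite ways. Gpd1 (ENSMUSG00000023019.12, mm10 chromosome 15, 99717515 to 99725005, plus strand), the cytosolic enzyme, which also makes the glycerol backbone of lipids, had 2.62, 3.57 and 2.74 CPM in the naive and 24.7, 10.3 and 9.39 CPM in the SOHU libraries. It had the largest change of all members, a rise of 4.97-fold (log2 fold change 2.31, SE 0.38, edgeR adjusted p = 0.0119). SOHU replicate 1 was the highest, and without it the rise was 3.29-fold (log2 fold change 1.72, edgeR adjusted p = 0.0087). Gpd2, the mitochondrial enzyme, fell 1.44-fold, from 27.3, 24.7 and 26.3 CPM in the naive to 19.6, 15.6 and 19 CPM in the SOHU libraries, just past the threshold (log2 fold change -0.53, SE 0.16, edgeR adjusted p = 0.0499). Gpd1 held 17.5, 24.2 and 18.7% of their summed level per length across naive replicates and 73.6, 59.3 and 52.2% across SOHU replicates. The difference of 2.68 in their log2 ratio was the largest of the 22 pairs.

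Of the glycogen genes Pygb rose and the others did not pass. Pygb, the brain form of glycogen phosphorylase, which frees glucose from the store, measured 116, 131 and 123 CPM in the naive and 292, 190.2 and 162 CPM in the SOHU libraries. Every SOHU library was above every naive library and SOHU replicate 1 was the highest, a rise of 1.74-fold (log2 fold change 0.80, SE 0.20, edgeR adjusted p = 0.0329) that was 1.42-fold without that library. Pygm, the muscle form, which astrocytes also make, was at 41 ± 7.64 CPM in naive and 32.6 ± 4.46 CPM in SOHU and did not pass (log2 fold change -0.33, SE 0.18, edgeR adjusted p = 0.246). The log2 ratio of Pygb to Pygm went from 1.60 ± 0.20 to 2.68 ± 0.43 with no overlap. Gys1, the glycogen synthase, was at 15 ± 0.664 and 17.6 ± 2.39 CPM (log2 fold change 0.23, SE 0.17, edgeR adjusted p = 0.386). It shares 310 exon bases with Ruvbl2 on the opposite strand, which had 328% of its reads. G6pdx, the entry to the pentose phosphate pathway, was at 136 ± 14.7 and 96.7 ± 27.2 CPM and did not pass (log2 fold change -0.49, SE 0.20, edgeR adjusted p = 0.134).

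**Figure D3:**
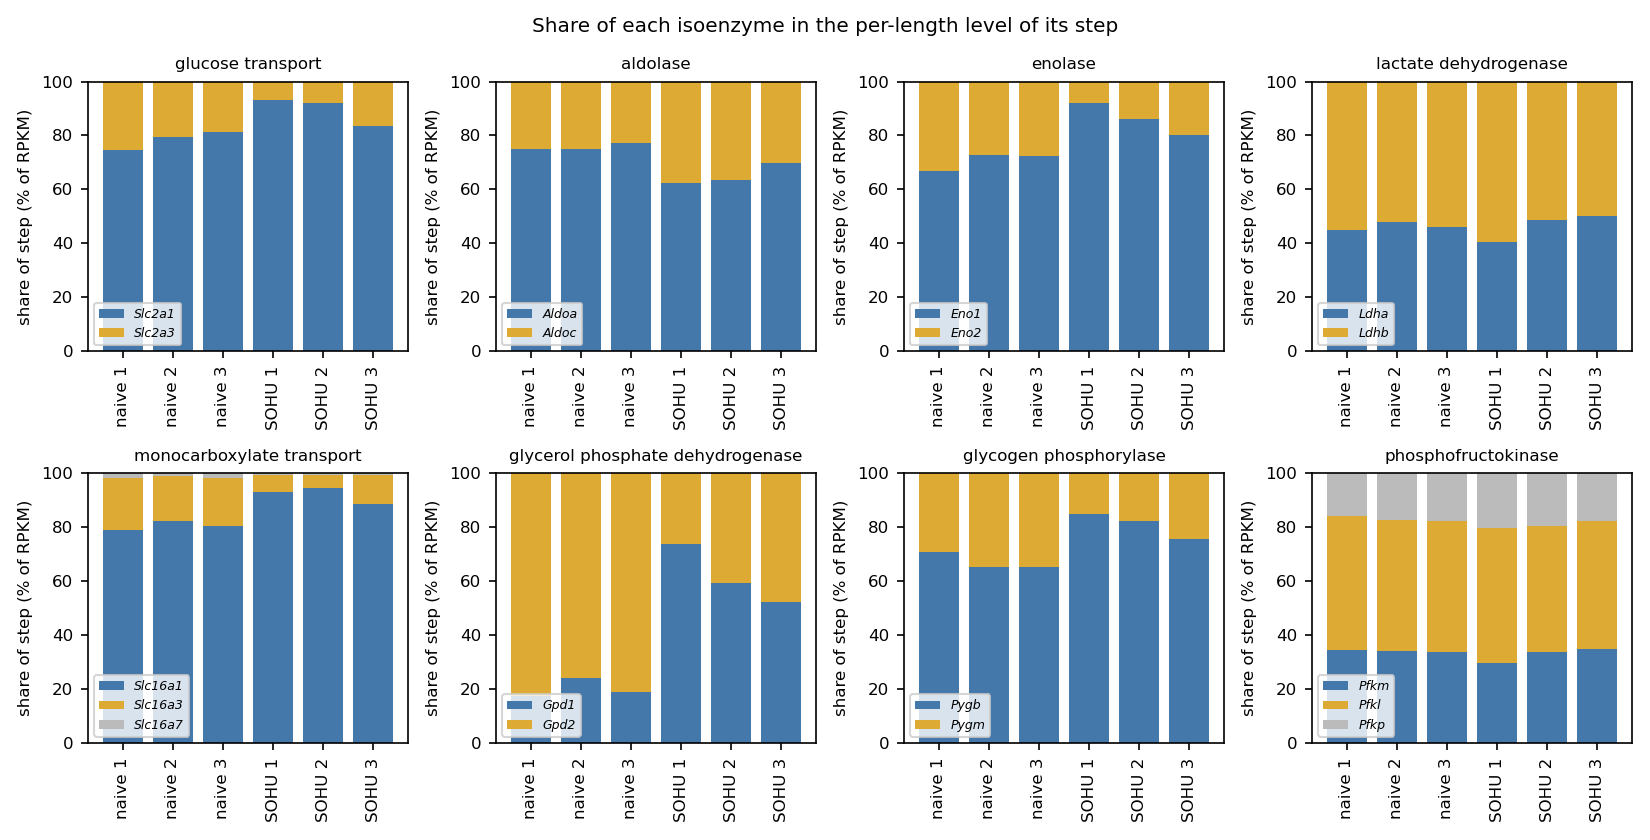
Share of each isoenzyme in the summed per-length level (RPKM) of its step, one bar per library, for 8 steps. The neuronal forms Slc2a3 and Eno2 took smaller shares in every SOHU library, Aldoc, Gpd1 and Pygb took larger ones, and the lactate dehydrogenase shares overlapped between the groups.

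Over all steps with more than 1 member, 22 pairs of isoenzymes were compared by their log2 ratio (log2 CPM with a prior count of 2), a measure that scaling of the libraries leaves almost untouched. In 12 pairs (54.5%) the groups did not overlap. For levels of single genes, which are another quantity, the share was 39% of all genes tested, and no share for ratios of other genes was computed. Each of the 12 had an exact two-sided permutation p = 0.1, the smallest that 3 libraries against 3 allow, and a Benjamini-Hochberg adjusted p = 0.183 over the 22 pairs, so that no ratio could pass. The largest differences, in order of size, were those of Gpd1 over Gpd2 (2.68), Slc16a1 over Slc16a3 (1.52), Eno1 over Eno2 (1.45), Slc16a1 over Slc16a7 (1.36), Slc2a1 over Slc2a3 (1.32) and Pygb over Pygm (1.08). Smaller ones without overlap were Pfkfb3 over Pfkfb4 (-0.84), Aldoa over Aldoc (-0.73), Pfkfb2 over Pfkfb3 (0.72), Pdk1 over Pdk2 (-0.55), Pdk2 over Pdk3 (0.31) and Pfkl over Pfkp (-0.19). Pairs of one step share genes and are not independent.

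**Figure D4:**
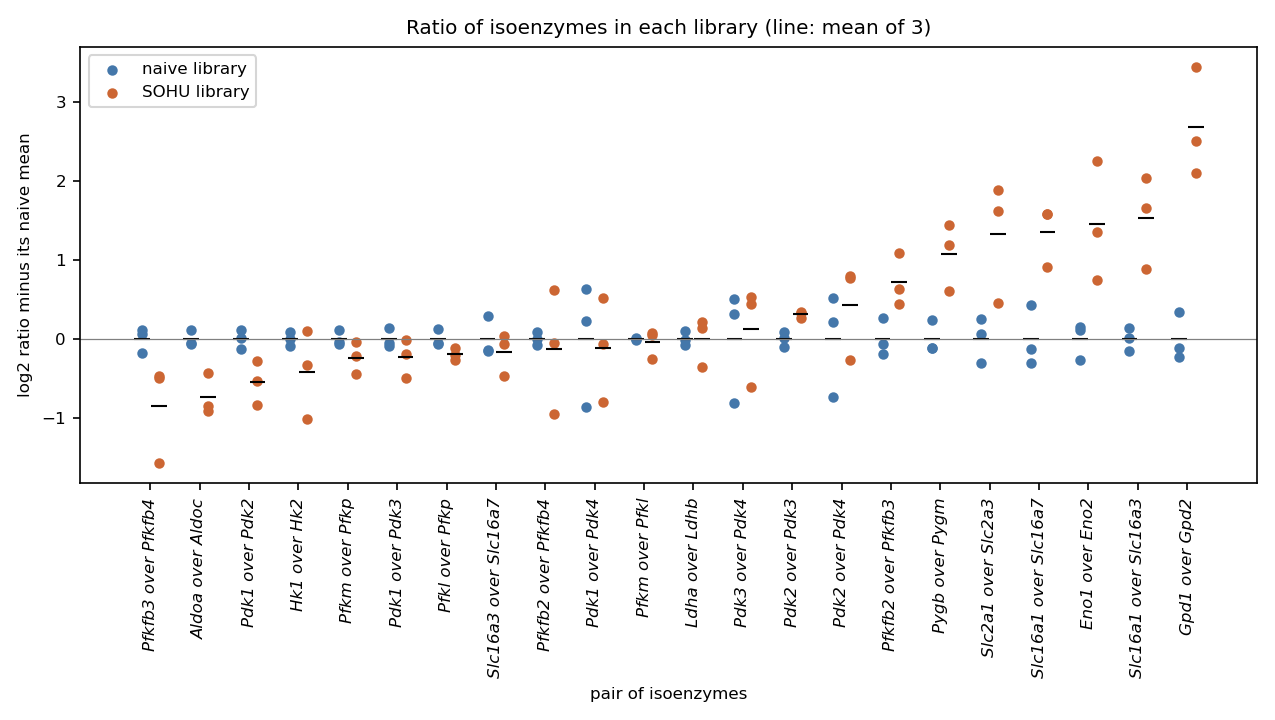
Log2 ratio of each pair of isoenzymes in each library, minus its naive mean (y axis), pairs ordered by the SOHU difference, with 3 naive (blue) and 3 SOHU (orange) points and a line at each mean. The pairs at the right, from Pygb over Pygm to Gpd1 over Gpd2, lie above their naive points in all SOHU libraries, and the means of Ldha over Ldhb and Pfkm over Pfkl lie near 0, with SOHU replicate 1 below the other libraries in both.

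The levels per length spanned a wide range. They leave out the annotated copies, which held 48.9% as many reads as Eno1 and 282% as many as Gapdh. Both would stand higher with the copies added. Eno1 then had 4748 ± 160 CPM in naive and 7147 ± 3480 CPM in SOHU, beside 3177 ± 131 and 4813 ± 2367 CPM alone. In naive libraries Aldoa stood first at 2358 ± 241 RPKM, followed by Tpi1 at 1269 ± 132 RPKM (SD, n = 3 each). Aldoc (758 ± 105), Ldhb (754 ± 109), Ldha (651 ± 67.6), Pkm (623 ± 84) and Eno1 (591 ± 24.3 RPKM) followed, and the neighbours in this order lay within their spread. The lowest were Slc16a7 at 0.443 ± 0.069 RPKM and Pdk4 at 0.287 ± 0.156 RPKM. By the group mean Aldoa was first in SOHU too, at 1354 ± 231 RPKM, and Eno1 at 895 ± 440.1 RPKM, Tpi1 at 738 ± 24 RPKM and Aldoc at 717 ± 88.9 RPKM were next and lay within the spread of Eno1, which was above Aldoa in SOHU replicate 1.

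Within the SOHU group, members differed in which library was highest. The sum of glial markers was highest in SOHU replicate 1 and lowest in replicate 3, and all 3 members that rose, along with Slc2a1, Eno1, Ldhb and Gys1, had their SOHU libraries in that order. These were 7 of 36 members, and 19% of all genes tested had that order, so the members were near the background. The sum of ganglion cell markers was highest in SOHU replicate 3 and lowest in replicate 2, and 8 of the 14 members that fell had that order, among them Eno2, Aldoa, Tpi1 and Gpi1. These were part of 10 of 36 members, where 12.9% of all genes tested had that order. These orders were looked at after the values were seen, and the part of either cell type in them was not tested.

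**Figure D5:**
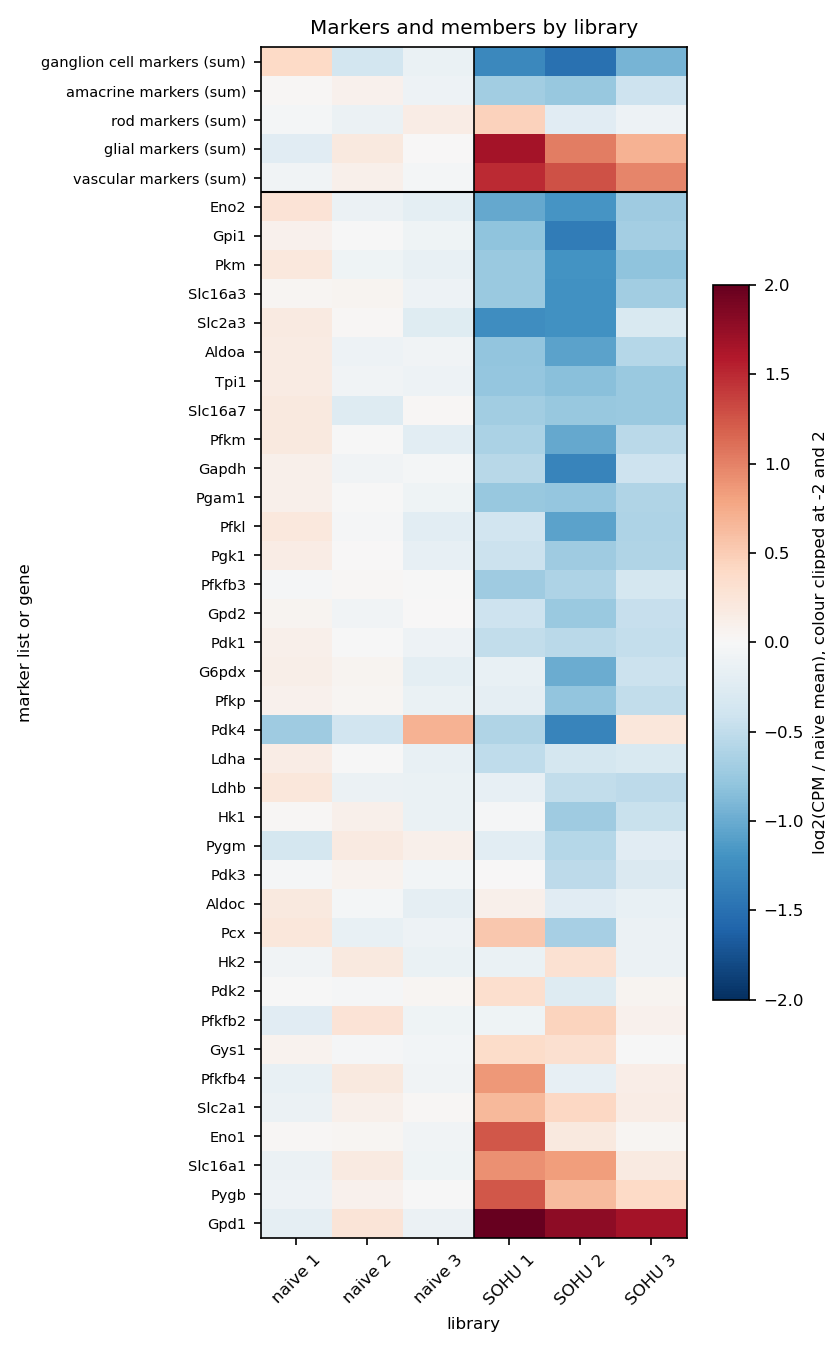
Log2 of the level in each library over the naive mean, for the summed marker lists (top 5 rows) and the 36 members ordered by change, with colours clipped at -2 and 2. The SOHU columns run from blue at Eno2, Gpi1 and Pkm to red at Slc16a1, Pygb and Gpd1, and replicate 1 is the reddest at Eno1 and in the glial sum.

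Genes beside the members in the same pathways showed a mixed picture. Of 62 such genes listed, 54 were tested, of which 9 fell and 4 rose, with a median log2 fold change of -0.040. Over all genes tested the shares were 5.93% lower and 8.02% higher. The malate-aspartate shuttle, the other route of cytosolic electrons into mitochondria, had 4 of 7 genes lower and 0 higher. Its aspartate transaminase Got1 measured 733, 665 and 618 CPM in the naive and 346, 344 and 406 CPM in the SOHU libraries (log2 fold change -0.88, SE 0.14, edgeR adjusted p = 0.0107), and Got2, Mdh1 and Mdh2 had log2 fold changes of -0.82, -0.66 and -0.53 (edgeR adjusted p = 0.0247, 0.0179 and 0.0331). Of 9 genes that bring pyruvate into mitochondria and make acetyl-CoA, Pdha1, the catalytic subunit of pyruvate dehydrogenase that the PDK kinases act on, fell 1.66-fold (log2 fold change -0.73, SE 0.14, edgeR adjusted p = 0.0159) and the others did not pass. In the pentose phosphate pathway, 7 genes beside G6pdx, the transketolase Tkt fell 1.85-fold (log2 fold change -0.89, SE 0.17, edgeR adjusted p = 0.0147) and the epimerase Rpe rose 1.66-fold (log2 fold change 0.73, SE 0.16, edgeR adjusted p = 0.0199).

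Among 14 partners of glycogen, the branching enzyme Gbe1 rose, from 73.4, 82.2 and 64.8 CPM in the naive to 222, 111 and 107 CPM in the SOHU libraries (log2 fold change 0.99, SE 0.26, edgeR adjusted p = 0.037), with SOHU replicate 1 far above the other 2. The kinase Gsk3a, which inhibits glycogen synthase, fell 1.4-fold (log2 fold change -0.49, SE 0.14, edgeR adjusted p = 0.0472). Of 17 further isoenzymes of the member steps 12 were tested. Hkdc1, a hexokinase-like enzyme, rose 3.76-fold, from 17.7, 31.5 and 14.9 CPM in the naive to 124, 81.7 and 34.8 CPM in the SOHU libraries (log2 fold change 1.91, SE 0.49, edgeR adjusted p = 0.0438), and the muscle mutase Pgam2 fell 2.21-fold (log2 fold change -1.14, SE 0.29, edgeR adjusted p = 0.0329). Pklr and Ldhc, the pyruvate kinase of liver and the lactate dehydrogenase of testis, had 0 reads in every library. Of 8 genes of gluconeogenesis and carrier partners 5 were tested, and Emb, the chaperone embigin of the monocarboxylate carriers, fell 1.62-fold (log2 fold change -0.69, SE 0.15, edgeR adjusted p = 0.0201).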

How the data were processed

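Values are whole-number counts that the authors deposited both by library and as a joint table, and the copies differ in 0 values. The submitters' processing notes name featureCounts, MultiQC, HISAT2, HISAT, Trim Galore, bcl2fastq 2.17 and build mm10. Settings, strand use and the treatment of multi-mapping reads were not given in any source used. Symbols came from GENCODE M21 by Ensembl identifier (55154 of 55335), and coordinates are those of the files.

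Counts were filtered with filterByExpr, scaled by TMM and tested with edgeR 4.0.16 in R 4.3.3 (robust quasi-likelihood, group as the only term, Benjamini-Hochberg threshold 0.05 over 17687 genes). Fold changes are SOHU over naive. The common biological coefficient of variation was 22.3%. CPM and RPKM were computed here from the deposited counts and the deposited exon lengths. Isoenzyme ratios were tested by exact permutation over libraries. The fit was tested on simulated data. Alternatives were DESeq2 1.42.0, limma 3.58.1 (voom), other scalings, no filter, a replicate block and omission of each library. The members and lists were chosen with earlier results of these data known. Named genes are all members and the other pathway genes past the threshold, apart from a result that is not reported here. Summing annotated copies was added after the data were seen.

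Of the members, 15 share exon bases with another gene, and 5 with one that reached 10% of their reads (G6pdx, Gapdh, Gys1, Pfkfb2 and Slc16a3), always on the opposite strand. In 9 members over 10% of the 50-base words of their transcripts occur in other annotated genes, and reads of these may be split or lost. Libraries of a group differed beyond sampling noise, since the chi-square per degree of freedom within groups was 9.15 to 57.8. Depth was 21691354 to 26824919 counts per library.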

Additional observations from a re-analysis of the deposited data

How the results depend on the processing

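With 3 libraries a group, counts of calls followed single libraries. Omitting each in turn gave 0 to 15 members lower and 0 to 4 higher, 0 to 1845 of all genes lower and 0 to 2051 higher, and 0 to 11 other pathway genes lower and 0 to 7 higher, by edgeR. The size factors of DESeq2 gave 15 members lower and 3 higher, limma-voom 15 and 2, DESeq2 17 and 3 (1731 of all genes lower), no filter 17 and 3 (1675 of all genes lower) and the copies added 15 and 3. All 14 members that fell were also lower by each of these 5. Replicates with the same number did not deviate together in every pair (correlations 0.16, 0.25 and 0.004), so the number is not known to pair them. With it as a replicate block 11 members fell and 3 rose, Pfkfb3, Gpd2, Pdk1 and Slc2a3 no longer passed and Gapdh did. For the isoenzyme ratios the block leaves the mean differences unchanged by construction. In all 3 numbered pairs 13 of 22 ratios moved the same way. The 12 ratios without overlap between the groups must do so under any pairing.

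Scaling to the ganglion cell markers moved the median of all genes to 1.20, left 2 genes lower and 12947 higher, 0 and 40 of the other pathway genes and 0 and 19 of the members. This scale sets each gene against the summed ganglion cell markers. It reversed 25 members, whose fall was smaller than that of the sum. Their log2 fold changes became 0.28 (Slc2a3), 0.81 (Hk1), 0.22 (Gpi1), 0.47 (Pfkm), 0.53 (Pfkl), 0.72 (Pfkp), 0.61 (Pfkfb3), 0.38 (Aldoa), 1.13 (Aldoc), 0.42 (Tpi1), 0.44 (Gapdh), 0.62 (Pgk1), 0.47 (Pgam1), 0.23 (Eno2), 0.29 (Pkm), 0.81 (Ldha), 0.84 (Ldhb), 0.30 (Slc16a3), 0.49 (Slc16a7), 0.69 (Pdk1), 0.92 (Pdk3), 0.65 (Pdk4), 0.65 (Gpd2), 0.79 (Pygm) and 0.68 (G6pdx). Every other reversal of a member was of one that had not passed. Pcx gave -3.1e-05 with DESeq2 size factors, -8.6e-05 in DESeq2, -0.070 in limma-voom, -0.030 with no filter, -0.069 with the replicate block and -0.0014 with the copies added. Over the omissions the ranges were -0.37 to 0.26 (Pcx), -0.10 to 0.15 (Hk2), -0.011 to 0.57 (Pfkfb4), -0.19 to 0.021 (Aldoc), -0.10 to 0.22 (Pdk2) and -0.88 to 0.10 (Pdk4). The ratios that changed sign were those of Pfkm to Pfkl (-0.10 to 0.059), Ldha to Ldhb (-0.11 to 0.17), Pfkfb2 to Pfkfb4 (-0.50 to 0.28), Pdk1 to Pdk4 (-0.55 to 0.23) and Pdk3 to Pdk4 (-0.29 to 0.48). The count of 12 pairs without overlap was 12 to 15 over the omissions. Leaving out a library cannot lower this count, so the range is no check on it. In the window before the start 25 promoters held the motif letters as well. The cause of these differences was not tested.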
